A study of Homo sapiens with 6 samples.

Results

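Short-read RNA-seq was compared between A549 cells transfected with si-PLANE.2, the siRNA against the long noncoding RNA PLANE that is numbered 2 in this study, and A549 cells transfected with the control siRNA si-ctrl. A549 is a cultured line derived from a human lung adenocarcinoma, with a KEAP1 mutation that leaves the redox regulator NRF2 active. The comparison uses 4 of the 6 libraries of the series, the si-ctrl replicates 1 and 2 and the si-PLANE.2 replicates 3 and 4, chosen by their labels alone. The other 2 libraries come from cells given a different siRNA against PLANE, si-PLANE.1, and are used only to show where si-PLANE.2 stands apart. In all groups the RNA was taken 48 h after transfection with a lipid reagent, and nothing in the labels says that the replicates were separate cultures, so the p-values measure only the spread between libraries, which may be technical. PLANE itself was not analysed here, and no value below checks its knockdown. Expected counts, estimates of the reads from each transcript, were summed for each gene, and levels are given as FPKM, which the authors scaled by transcript length and depth. The si-PLANE.2 libraries held 20778431 and 18281765 expected counts and the si-ctrl libraries 13643800 and 14267231. Each group is 1 cell line and 2 libraries.

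A small interfering RNA guides the RNA-induced silencing complex to transcripts with a matching sequence, which are then cut and degraded, and it can also repress transcripts that match only its short seed. Messenger RNA is brought into a sequencing library in different ways. Poly(A) isolation keeps transcripts with a poly(A) tail, whereas removal of ribosomal RNA keeps transcripts with and without one, including unspliced nuclear RNA. The study's methods name both ways and assign neither to a library. The clearest natural marker of that difference is the family of replication-dependent histone mRNAs, which package newly made DNA in S phase and end in a conserved stem-loop in place of a poly(A) tail.

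The stem-loops of 7 histone genes that stand for the fall described next are printed here because they are what those transcripts carry at their 3′ end. The sequences come from the GENCODE transcripts of GRCh37, 5′ to 3′ on the transcript strand, with the 16-base stem-loop in capitals and 5 bases or fewer on each side in lower case.
H1-4 (chr6:26157318-26157343, plus strand): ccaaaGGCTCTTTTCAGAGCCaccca
H1-3 (chr6:26234440-26234465, minus strand): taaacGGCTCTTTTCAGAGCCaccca
H4C3 (chr6:26104540-26104565, plus strand): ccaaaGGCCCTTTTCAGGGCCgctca
H2BC18 (chr1:149783435-149783460, minus strand): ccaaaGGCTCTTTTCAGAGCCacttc
H2AC20 (chr1:149858936-149858961, plus strand): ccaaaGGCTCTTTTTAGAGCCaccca
H1-2 (chr6:26055968-26055992, minus strand): caaaaGGCTCTTTTCAGAGCCacca
H2BC12 (chr6:27114140-27114165, minus strand): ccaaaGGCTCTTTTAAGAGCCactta
H2BC12 and H1-2 are shown because they kept more signal than the other 5, and their stem-loops match the same motif. The motif searched was GGNNCTNTTNAGNNCC on the transcript strand alone, within the last 150 bases of the most abundant transcript of each gene tested. It was found in 31 of 13891 genes with a sequence, or 0.223%, and all 31 belong to the 39 replication-dependent histone genes that have one. None of the 10 replication-independent histone genes held it, and 5 of those 10 held AATAAA, a common poly(A) signal, in their last 50 bases, against 50.5% of all genes with a sequence. A match describes the sequence and shows no processing of the transcript.

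Replication-dependent histone mRNAs were nearly absent after si-PLANE.2. The median member had 164 and 165 FPKM with si-ctrl, 0.85 and 1.03 FPKM with si-PLANE.2, and 92.7 and 115 FPKM with si-PLANE.1. These genes took 1.31% and 1.48% of the summed FPKM of the si-ctrl libraries and 0.03% of that of each si-PLANE.2 library. Of the 40 list members tested, a list that includes a few pseudogenes, 37 fell and 0 rose at an adjusted p under 0.05 in edgeR's quasi-likelihood test, against 32.3% of all genes that fell and 31.9% that rose. The median log2 fold change was -6.06, also with the 4 genes at 0 in both si-PLANE.2 libraries set to their bound. The fall was not uniform among the members. H2BC10, a core histone of nucleosomes, was listed at 335 and 362 FPKM in si-ctrl and at 0 in both si-PLANE.2 libraries, at least 513-fold lower against a floor of 3 counts per library. H4C3 went from 273 and 503 FPKM to 0.53 and 0.30 FPKM. The linker histone H1-2 kept more of its signal, from 519 and 512 FPKM to 38.5 and 31.0 FPKM (log2 fold change -3.65 ± 0.13, SE). H2BC12, from 229 and 249 FPKM to 82.5 and 85.4 FPKM, fell least of the abundant members (-1.29 ± 0.10). Histone genes are near-identical copies, so the split of reads among them is uncertain.

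**Figure D1:**
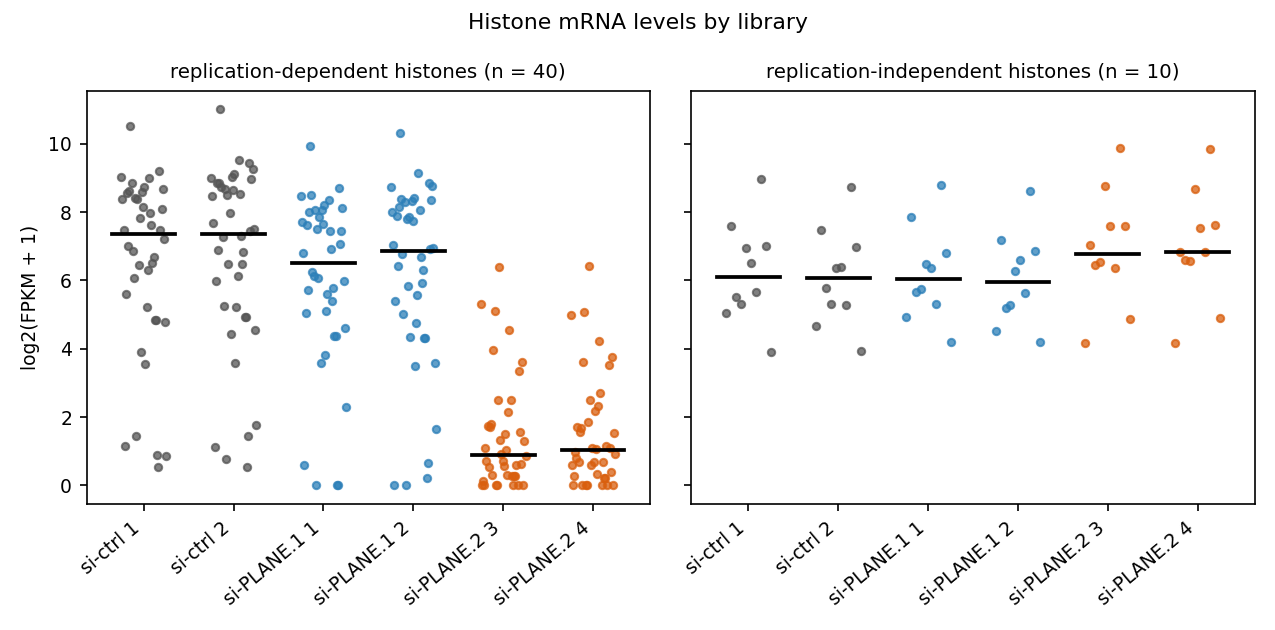
Levels of replication-dependent (left) and replication-independent (right) histone genes in the 6 libraries, as log2(FPKM + 1). Each point is a gene and each black bar the median of the library. In the left panel both si-PLANE.2 libraries have medians near 1 FPKM, against 164 and 165 FPKM in si-ctrl, and in the right panel the si-PLANE.2 medians lie above those of the other 4 libraries.

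Histone genes whose mRNAs carry a poly(A) tail moved the other way. Of 10 replication-independent histone genes, which replace histones outside S phase, 7 rose and 1 fell (median log2 fold change 1.06, length-adjusted 0.70). H2AZ1, a variant placed at promoters, rose from 124 and 81.6 FPKM to 434 and 409 FPKM (2.24 ± 0.18). H3-3B rose from 499 and 422 FPKM to 945 and 922 FPKM (1.04 ± 0.12). The centromeric CENPA had a log2 fold change of 0.16 ± 0.16 on counts that did not pass. Of 14 genes for proteins that make the stem-loop end, 4 were higher and 5 lower, or 28.6% and 35.7%. As a list they were near the 31.9% and 32.3% of all genes. Their median was 0.04, and -0.38 on TPM values. SLBP, which binds the stem-loop, rose by 0.93 ± 0.10 on the log2 scale of counts but stood at -0.03 on TPM values, and NPAT, which activates histone transcription, fell by 1.28 ± 0.15 (8.10 and 7.12 FPKM against 2.69 and 2.56 FPKM). For histone mRNA, the siRNA and the way a library was prepared cannot be told apart. The replication-dependent mRNAs are at high levels in both si-ctrl libraries and at low levels in both si-PLANE.2 libraries.

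Some other parts of the RNA content also separated the si-PLANE.2 libraries. MTRNR2L1, a nuclear copy of the gene for the large mitochondrial ribosomal RNA, was at 2.92 and 1.02 FPKM in si-ctrl, at 1.8 and 1.31 FPKM in si-PLANE.1 and at 242 and 226 FPKM in si-PLANE.2. Reads of the mitochondrial RNA itself cannot be told from such copies. The mRNAs of the mitochondrial genome had 6 higher and 1 lower of 13, with a median log2 fold change of 0.34 that turned to -0.02 on TPM values and to -0.03 when adjusted for length as below. That median was 0.06 without si-ctrl replicate 1 and 0.67 without si-ctrl replicate 2, so it depends on the control library kept. Among them MT-ND6, the subunit encoded on the light strand, rose from 673 and 602 FPKM to 2186 and 1751 FPKM, whereas MT-ND5, another subunit of complex I, fell from 2588 and 3345 FPKM to 1876 and 1966 FPKM (-0.44 ± 0.15). Transcripts annotated as retained introns took 7.79% and 7.998% of the summed FPKM in si-ctrl, 8.10% and 8.13% in si-PLANE.1, and 4.43% and 4.58% in si-PLANE.2.

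Globin mRNAs, the products of red blood cell precursors, were also split among the libraries. HBB was listed at 542 and 515 FPKM in si-ctrl and at 0 in both si-PLANE.2 libraries, at least 377-fold lower. HBA1 stood at 89.2 and 94.8 FPKM in si-ctrl and HBA2 at 55.6 and 58.5 FPKM, and both were at 0 after si-PLANE.2. The split did not follow the siRNA, since HBB was at 736 FPKM in si-PLANE.1 replicate 1 and at 0 in si-PLANE.1 replicate 2. The erythroid genes AHSP and HBD were at 0 in all 6 libraries, and ALAS2 reached 0.27 FPKM at most. In bulk RNA, fewer cells of a type and less RNA per cell cannot be told apart. The A549 markers were all detected at 1 FPKM or more in each library (15 of 15), and 12 of the 15 rose and 2 fell after si-PLANE.2, with a median log2 fold change of 0.74 and a length-adjusted median of 0.41. A list of 15 housekeeping genes had 10 higher and 1 lower, with medians of 0.75 and 0.39, which is about the size of several groups described below as higher. Endothelial markers summed to at most 1.09 FPKM in any library and fibroblast markers to 3.90 and 4.64 FPKM in si-PLANE.2 against 14.1 and 10.6 FPKM in si-ctrl. Surfactant protein genes of alveolar type II cells, the lung cell that A549 is often compared with, were below 1 FPKM in all libraries. Another marker of these cells, ABCA3, ranged from 14.66 FPKM (si-PLANE.2 replicate 3) to 26.25 FPKM (si-PLANE.1 replicate 2). LAMP3 and NAPSA, also on that list, passed 1 FPKM in some libraries only. Within the leukocyte markers only HBB, HBA1, CD68 and CD14 exceeded 1 FPKM in both si-ctrl libraries, and the defining leukocyte gene PTPRC was at 0 in both.

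Expression differed for most of the genes tested. Of 14166 genes with a mean of at least 0.5 FPKM, 4513 were higher and 4571 lower after si-PLANE.2 at an adjusted p under 0.05 in edgeR's quasi-likelihood test, which is 64.1% of the genes tested. An absolute log2 fold change over 1 was found for 2024 of the higher and 2352 of the lower genes. The same test found 1 higher and 4 lower genes of 14529 between si-PLANE.1 and si-ctrl, with an unadjusted p under 0.05 for 1517. With the replicate number as a block, a fit chosen after seeing the data, it found 494 higher and 731 lower, so the low count does not show that si-PLANE.1 left expression as it was. The balance of directions after si-PLANE.2 depends on the scale. TMM scaling gave 49.7% higher among the called genes and a median log2 fold change of -0.03 over all genes, whereas library totals alone gave 39.8% and -0.20, limma on log2(FPKM + 1) gave 37.1% and -0.22, and limma on log2(TPM + 1) gave 28.6% and -0.37. A change below is relative to the TMM median, and a TPM value beside it should be read against that shift.

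Direction followed transcript length. The genes were split into 5 bins of equal size by the mean length of their transcripts. In that mean each transcript was weighted by its mean FPKM over the 6 libraries, si-PLANE.2 included. The length of a gene thus depends in part on the same data. In the bin of 135 to 1182 bases, 42.3% of the genes rose and 19.0% fell, with a median log2 fold change of 0.38. In the bin of 3394 bases and longer, 11.8% rose and 59.8% fell, with a median of -0.59. The 3 bins between them had medians of 0.34, 0.10 and -0.16, so the median fell from each bin to the next. After si-PLANE.1 the 5 medians ran from -0.09 to 0.04. For the gene groups below in which it moves the median by over 1.5 times, and for some others, the median is therefore also given after the median of all genes in the same length bin has been subtracted from each member, called the length-adjusted median. What part of any group's change goes with length was not tested further.

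**Figure D2:**
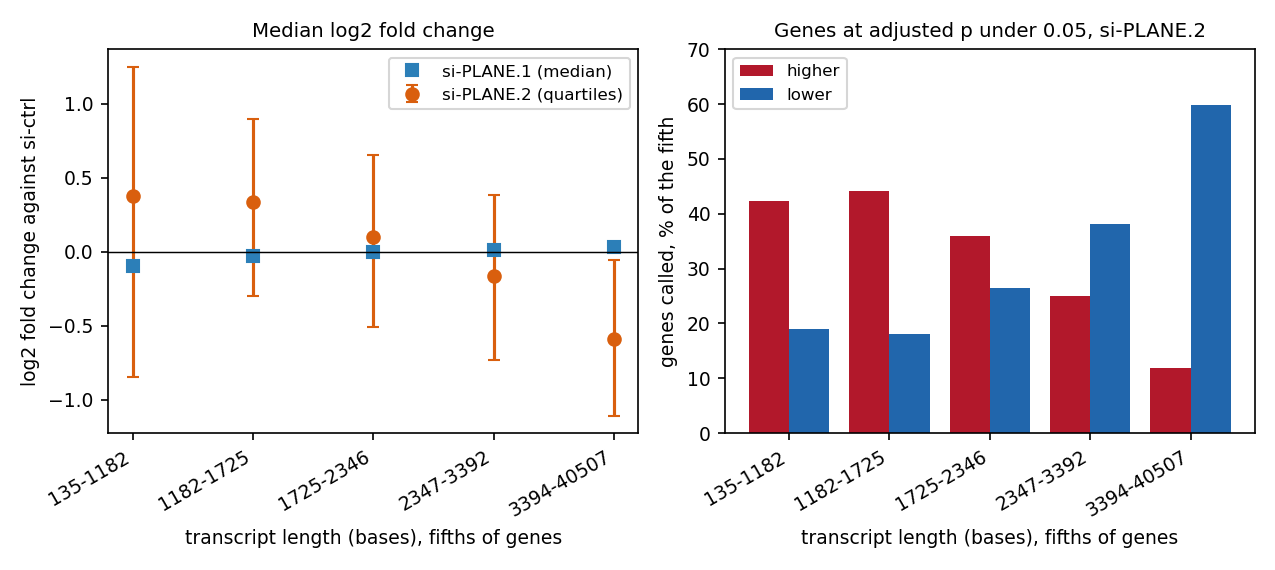
Left, median log2 fold change against si-ctrl in 5 equal bins of transcript length in bases, with quartiles for si-PLANE.2 and medians alone for si-PLANE.1. Right, the share of genes called higher or lower after si-PLANE.2 in each bin, where the share called lower goes from 19.0% in the shortest bin to 59.8% in the longest.

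The largest changes fell on genes that are hard to quantify. Among the 12 largest rises, 7 were gene identifiers without a symbol in the sources used here, of which ENSG00000269028 went from 21.8 and 8.01 FPKM to 6760 and 6039 FPKM and ENSG00000271043 from 7.72 and 3.86 FPKM to 3705 and 3150 FPKM. The others were the pseudogenes CTD-2328D6.1, FABP5P7 and PIGCP1, the short protein-coding gene RAMACL, and HSPA1B, a heat shock protein gene with a near-identical neighbour, HSPA1A. Since HSPA1B was at 0 in both si-ctrl libraries and at 12.9 and 7.62 FPKM after si-PLANE.2, it is given with HSPA1A, which rose from 32.0 and 36.1 FPKM to 110 and 112 FPKM. The 12 largest falls outside the histone list comprised the 3 globins, the read-through gene PEDS1-UBE2V1 and 8 identifiers without a symbol, among them ENSG00000196532, from 426 and 452 FPKM to 0 in both libraries, and ENSG00000196374, from 329 and 520 FPKM to 0 in both. Without a symbol, their place in or outside the histone family was not resolved here.

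A second selection, made after the values had been seen, kept annotated protein-coding genes with a symbol and at least 1 FPKM in the lower group that were also called when only protein-coding transcripts were summed. It was led by RPL10, a protein of the large ribosomal subunit, which went from 4.35 and 15.3 FPKM to 1591 and 1598 FPKM. In si-PLANE.1 RPL10 was at 17.2 and 12.8 FPKM. RPL10 has many processed copies, so the split of reads between the gene and its copies is uncertain in every library. The cause of the difference was not tested. The acute-phase protein SAA1 rose from 2.01 and 1.06 FPKM to 29.1 and 34.5 FPKM (log2 fold change 4.65 ± 0.32), and the keratin KRT4 from 2.85 and 2.70 FPKM to 37.5 and 47.5 FPKM (4.32 ± 0.16). NDUFS6, a subunit of respiratory complex I, rose from 9.96 and 7.27 FPKM to 133 and 121 FPKM (3.87 ± 0.12). AP1M2, an adaptor of clathrin coats in epithelial cells, rose from 3.15 and 2.57 FPKM to 26.3 and 33.0 FPKM (3.45 ± 0.20). TSPAN7, a tetraspanin of the cell surface, rose from 2.29 and 3.38 FPKM to 21.4 and 21.8 FPKM (3.32 ± 0.23). The si-PLANE.1 libraries held 0.82 and 0 FPKM of SAA1 and 8 and 6.16 FPKM of NDUFS6, below si-ctrl or within its range.

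The same selection among the falls was led by genes of varied roles. WDPCP, which acts in planar cell polarity and cilia, fell from 61.6 and 65.3 FPKM to 4.12 and 4.58 FPKM (-4.09 ± 0.11). The zinc finger gene ZNF354B fell from 56.3 and 58.4 FPKM to 5.54 and 4.38 FPKM (-4.07 ± 0.12), and the transcriptional repressor ZBTB20 from 27.2 and 19.9 FPKM to 0.85 and 1.34 FPKM (-3.96 ± 0.23). MDM4, the partner of MDM2 that restrains p53, fell from 54.9 and 70.8 FPKM to 4.23 and 4.32 FPKM (-2.98 ± 0.13). STC1, a secreted glycoprotein, fell from 20.9 and 21.7 FPKM to 2.38 and 2.41 FPKM (-2.97 ± 0.12). CHL1, an adhesion molecule of the L1 family, fell from 21.1 and 18.7 FPKM to 1.36 and 2.36 FPKM (-3.02 ± 0.17). In si-PLANE.1 WDPCP stood at 80.7 and 82.0 FPKM and MDM4 at 69.7 and 76.5 FPKM, far from the si-PLANE.2 values. For RGPD6 and ANKRD36C, which belong to families of near-identical copies, a fall was called as well but the split of reads among copies is uncertain.

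Genes of the translation machinery were higher as a group. Of 85 cytoplasmic ribosomal protein genes, 72 rose and 1 fell, with a median log2 fold change of 1.08 and a length-adjusted median of 0.71. RPS29, of the small subunit, rose from 223 and 210 FPKM to 3058 and 2747 FPKM (3.65 ± 0.13), and RPLP1, of the ribosomal stalk, from 455 and 466 FPKM to 3598 and 3409 FPKM (3.06 ± 0.11). RPL26 was the member that fell, from 3450 and 3759 FPKM to 2259 and 2177 FPKM (-0.43 ± 0.11), and stood at 0.25 when only protein-coding transcripts were summed. Ribosomal protein genes have many processed pseudogenes, which can take up their reads. Of 47 translation factors 30 rose and 6 fell (median 0.56), led by EIF6, an antiassociation factor of the large subunit, and by the helicase EIF4A3, from 31.0 and 27.6 FPKM to 117 and 122.9 FPKM (1.68 ± 0.10). PABPC1, which coats poly(A) tails in the cytoplasm, fell from 1724 and 2695 FPKM to 772 and 795 FPKM (-1.01 ± 0.17). Ribosome biogenesis factors had 24 of 40 higher and 6 lower (0.55), and aminoacyl-tRNA synthetases 13 of 20 higher and 2 lower (0.43).

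Nuclear-encoded mitochondrial genes showed the same direction. Of 76 nuclear subunits of oxidative phosphorylation, 67 rose and 1 fell (median 1.07, length-adjusted 0.79). NDUFA1, of complex I, rose from 30.1 and 22.9 FPKM to 231 and 227 FPKM (3.34 ± 0.14), next to NDUFS6 above, and NDUFB5 fell from 53.9 and 52.4 FPKM to 34.1 and 28.7 FPKM (-0.49 ± 0.12). Of 76 mitochondrial ribosomal proteins 54 rose and 7 fell (0.83, length-adjusted 0.46). MRPS26 rose from 21.8 and 22.6 FPKM to 99.6 and 100.1 FPKM (2.38 ± 0.10), while MRPL30 fell from 32.2 and 15.2 FPKM to 3.05 and 1.06 FPKM (-3.86 ± 0.72). The transcripts of both lists are short, with median lengths of 774 and 1125 bases, against 2009 bases over all genes.

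Protein quality control genes rose too. Of 40 proteasome subunits, 32 rose and 2 fell (median 0.83, length-adjusted 0.62). PSMA7, of the core particle, rose from 88.2 and 69.6 FPKM to 381 and 363 FPKM (2.46 ± 0.13), and the immunoproteasome subunit PSMB10 from 13.0 and 9.76 FPKM to 53.9 and 56.3 FPKM (3.06 ± 0.17). The falls were PSMD5, a chaperone of proteasome assembly, and PSME4, an activator of the core, by 0.72 ± 0.11 and 0.68 ± 0.09 on the log2 scale. Of 27 cytosolic chaperones 25 rose and 1 fell (0.89, length-adjusted 0.68), a list that includes HSPE1, the cochaperonin of mitochondria, which went from 148 and 107 FPKM to 511 and 442 FPKM (2.14 ± 0.14). Genes of the endoplasmic reticulum chaperones and unfolded protein response had 11 of 24 higher and 4 lower, with a median of 0.32 that turned to -0.12 on TPM values and was 0.17 without si-ctrl replicate 2. SDF2L1, a stress-induced reticulum protein, rose from 10.0 and 6.19 FPKM to 74.5 and 68.5 FPKM (3.38 ± 0.20), whereas the stress sensors ATF6 and ERN1 fell by 0.83 and 0.64 on the log2 scale.

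**Figure D3:**
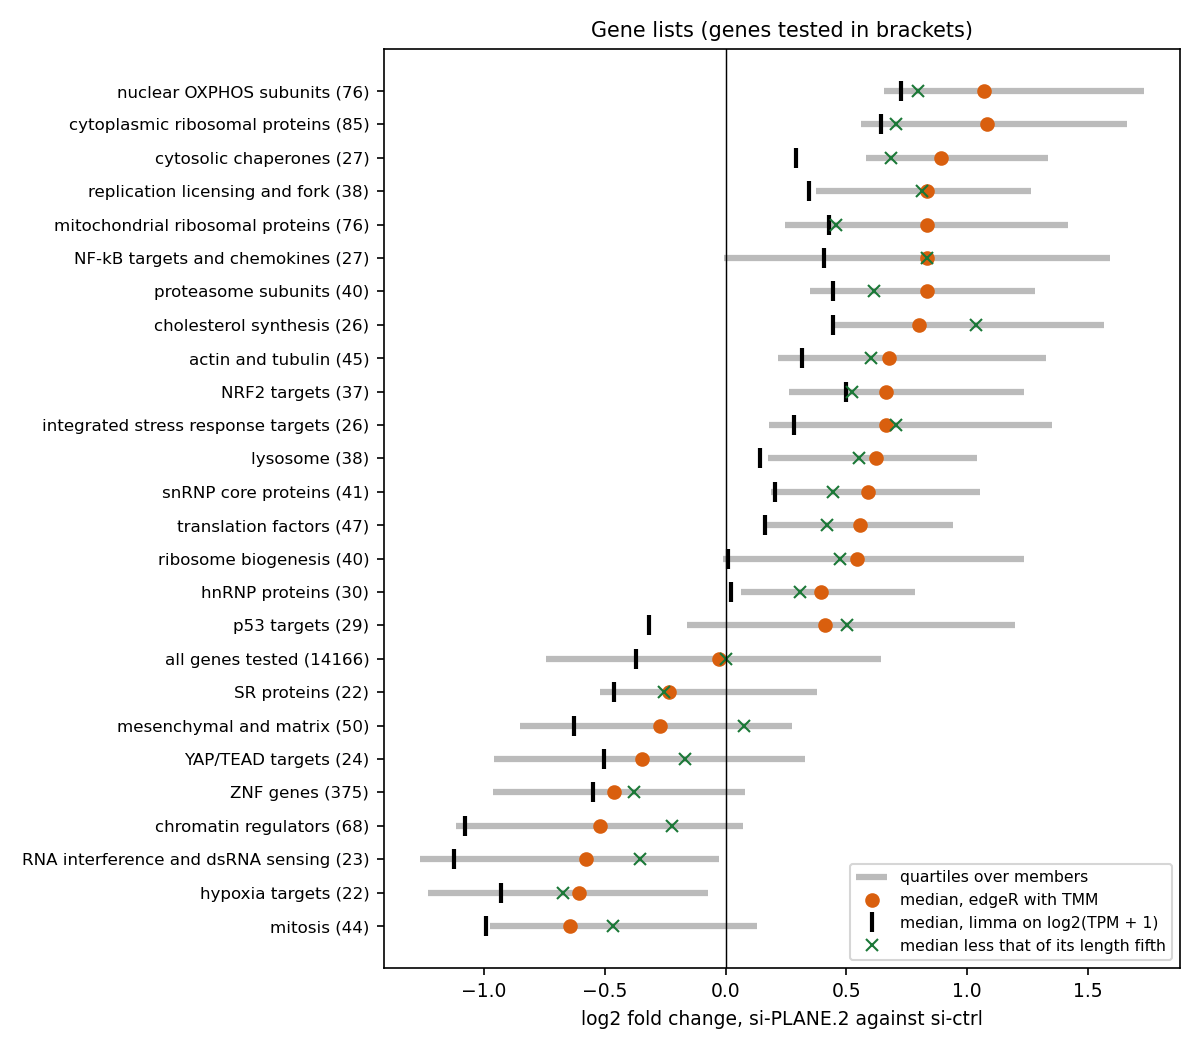
Median log2 fold change of si-PLANE.2 against si-ctrl for gene lists, with the number of genes tested in brackets. Grey bars span the quartiles of the members, circles are medians from edgeR with TMM, vertical ticks medians from limma on log2(TPM + 1), and crosses medians after subtracting the median of the same length bin. Oxidative phosphorylation and ribosomal protein lists lie near 1, all genes at -0.03, and mitosis and hypoxia lists near -0.6.

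Metabolic and stress pathways were mostly higher. Of 26 cholesterol synthesis genes, 20 rose and 0 fell (median 0.80), and the length-adjusted median was larger, 1.04. PMVK rose from 13.2 and 12.8 FPKM to 56.6 and 47.3 FPKM (2.21 ± 0.13) and MVD from 15.2 and 13.7 FPKM to 53.5 and 58.6 FPKM (2.16 ± 0.11), both enzymes of the mevalonate path. Of 37 NRF2 targets 25 rose and 2 fell (0.67, length-adjusted 0.52). AKR1B1, an aldose reductase, rose from 229 and 179 FPKM to 1111 and 1046 FPKM (2.30 ± 0.14), OSGIN1 from 13.4 and 15.0 FPKM to 78.7 and 84.2 FPKM (2.77 ± 0.13), and the aldo-keto reductase AKR1B10 from 1444 and 1472 FPKM to 4365 and 4542 FPKM (1.81 ± 0.11). NFE2L2, which encodes NRF2, was itself lower, at 49.8 and 48.5 FPKM against 111 and 149 FPKM (-0.87 ± 0.11). Integrated stress response targets had 17 of 26 higher and 2 lower (0.67). SLC3A2, the heavy chain of amino acid transporters, rose from 123.2 and 108 FPKM to 501 and 510 FPKM (2.33 ± 0.10), and ALDH1L2, of mitochondrial folate metabolism, fell by 1.12 ± 0.16 on the log2 scale. Metallothioneins and iron genes had 8 of 14 higher and 1 lower (0.70), with MT1F from 6.15 and 5.44 FPKM to 46.4 and 45.1 FPKM (3.19 ± 0.18). Of 23 glycolysis genes 11 rose and 6 fell, with a median of 0.29, or 0.13 when adjusted for length. The unadjusted median turned to -0.16 on TPM values and to -0.004 on log2(FPKM + 1).

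Inflammatory, cytoskeletal and lysosomal genes shared this direction. Of 27 NF-kB targets and chemokines, 18 rose and 3 fell (median 0.83, length-adjusted 0.83). IL32, a cytokine made by epithelial cells, rose from 13.0 and 12.3 FPKM to 84.7 and 81.5 FPKM (3.15 ± 0.13), and BIRC3, an inhibitor of apoptosis, fell from 31.1 and 35.8 FPKM to 16.04 and 13.9 FPKM (-0.85 ± 0.10). LCN2, a secreted siderophore-binding protein named by the second selection, rose from 52.3 and 28.1 FPKM to 298 and 310 FPKM (3.19 ± 0.25). Actin and tubulin genes had 30 of 45 higher and 2 lower (0.68, length-adjusted 0.60). MYL6, a light chain of nonmuscle myosin, rose from 416 and 369 FPKM to 2209 and 2103 FPKM (2.82 ± 0.11) and TPM2, a tropomyosin, from 71.5 and 86.3 FPKM to 307 and 283 FPKM (2.23 ± 0.12). Among the members that fell was CALD1, the caldesmon that binds actin and myosin (-0.66 ± 0.11). Lysosomal genes had 26 of 38 higher and 3 lower (0.62), among them NPC2, which carries cholesterol out of the lysosome, from 84.7 and 88.8 FPKM to 341 and 342 FPKM (2.29 ± 0.10). Subunits of the V-ATPase, the proton pump of that organelle, had 12 of 19 higher and 1 lower (0.55).

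Transcription and chromatin genes were lower as a group. Of 375 zinc finger genes, 165 fell and 42 rose (median -0.46, length-adjusted -0.38). ZNF460 fell from 28.7 and 26.6 FPKM to 0.54 and 0.34 FPKM (-6.09 ± 0.16), and ZNF428 rose from 14.8 and 15.2 FPKM to 50.01 and 45.6 FPKM (1.86 ± 0.12). Of 68 chromatin regulators 41 fell and 10 rose (-0.52), but their transcripts are long, with a median of 4012 bases, and the length-adjusted median was -0.22. KMT2C, a histone H3 methyltransferase, fell from 21.3 and 21.7 FPKM to 5.05 and 5.31 FPKM (-2.27 ± 0.11), and ARID2, of a SWI/SNF complex, from 32.5 and 37.3 FPKM to 5.99 and 6.96 FPKM (-2.09 ± 0.11). EED and HDAC1, a Polycomb subunit and a histone deacetylase, rose by 1.43 ± 0.14 and 1.04 ± 0.10.

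The machinery that siRNAs use was lower in part. Of 23 genes of RNA interference and double-stranded RNA sensing, 13 fell and 4 rose (median -0.58, length-adjusted -0.36, and -0.33 without si-ctrl replicate 1). TNRC6B, a scaffold that joins Argonaute to the deadenylases, fell from 21.6 and 20.4 FPKM to 2.57 and 3.59 FPKM (-2.96 ± 0.14). TARBP2, a partner of Dicer, rose from 16.4 and 15.2 FPKM to 32.4 and 32.8 FPKM (1.68 ± 0.12). EIF2AK2, a kinase that senses double-stranded RNA, fell from 169 and 54.3 FPKM to 22.0 and 22.2 FPKM (-2.16 ± 0.40), so the si-ctrl libraries differed from each other. That spread ran through the interferon-stimulated genes. OAS2, which makes the activator of RNase L, was at 35.7 and 0.27 FPKM in si-ctrl, at 61.8 and 0.16 FPKM in si-PLANE.1 and at 0.15 and 0.14 FPKM in si-PLANE.2. Of 42 such genes 13 fell and 0 rose (median -1.40), and the median was 0.53 without si-ctrl replicate 1 and -2.24 without si-ctrl replicate 2, so the direction rests on the first of these libraries.

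Hypoxia targets had 14 of 22 lower and 2 higher (median -0.61, length-adjusted -0.67). ERO1A, an oxidase of the endoplasmic reticulum, fell from 83.6 and 76.9 FPKM to 27.3 and 29.8 FPKM (-1.77 ± 0.10), and the collagen crosslinking enzyme LOX from 2.52 and 1.94 FPKM to 0.25 and 0.34 FPKM (-3.77 ± 0.29). YAP/TEAD targets had 13 of 24 lower and 6 higher (-0.35, length-adjusted -0.17). AXL, a receptor tyrosine kinase, fell from 78.9 and 104 FPKM to 30.8 and 31.8 FPKM (-1.47 ± 0.12), whereas CCN2, a matricellular protein widely used to read YAP activity, rose from 5.27 and 7.56 FPKM to 19.2 and 22.7 FPKM (1.89 ± 0.19). Mesenchymal and matrix genes had 23 of 50 lower and 11 higher, with a median of -0.27 that became 0.07 when adjusted for length. The part of the low fibroblast markers given above in this list was not tested. The integrin ITGA2 fell from 16.6 and 11.8 FPKM to 3.16 and 3.72 FPKM (-1.95 ± 0.15), and PLAU, the urokinase of the plasminogen system, rose from 12.3 and 10.3 FPKM to 36.1 and 36.7 FPKM (1.85 ± 0.10). Among complement and coagulation genes 11 of 28 fell and 8 rose (-0.09, length-adjusted -0.25). These are 39.3% and 28.6%, against 32.3% and 31.9% of all genes. The rises included PLAU above and VTN, from 13.35 and 12.2 FPKM to 45.5 and 47.4 FPKM (1.21 ± 0.11). The falls included FGG, a fibrinogen chain, from 271 and 212 FPKM to 60.2 and 55.2 FPKM (-1.69 ± 0.12), and TFPI, the inhibitor of the tissue factor pathway, from 180 and 209 FPKM to 56.9 and 62.8 FPKM (-1.77 ± 0.12).

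Growth control genes were divided. Mitosis genes had 26 of 44 lower and 8 higher (median -0.64, length-adjusted -0.47). PTTG1, the securin that holds separase inactive, fell from 794 and 958 FPKM to 103 and 83.3 FPKM (-2.21 ± 0.14) and the kinesin CENPE from 11.2 and 9.55 FPKM to 3.34 and 2.09 FPKM (-1.80 ± 0.10), while the survivin gene BIRC5 rose from 23.6 and 19.3 FPKM to 54.3 and 53.1 FPKM (1.07 ± 0.12). Replication genes went the other way, with 29 of 38 higher and 4 lower (0.83, length-adjusted 0.81). FEN1, which trims flaps at Okazaki fragments, rose from 17.0 and 13.0 FPKM to 59.1 and 54.9 FPKM (2.08 ± 0.14). ORC6, of the origin recognition complex, fell from 96.4 and 107 FPKM to 25.1 and 23.9 FPKM (-2.00 ± 0.12), but had a log2 fold change of 3.32 when only protein-coding transcripts were summed. Enzymes of nucleotide supply had 11 of 17 higher and 1 lower (0.72, and 0.46 with protein-coding transcripts alone), with TK1, thymidine kinase, from 31.5 and 27.5 FPKM to 136 and 144 FPKM (2.09 ± 0.10). Of 29 p53 targets 17 rose and 7 fell, with a median of 0.41. That median turned to -0.32 on TPM values and to -0.17 on log2(FPKM + 1). TP53I3 rose from 24.3 and 23.3 FPKM to 89.4 and 82.8 FPKM (2.24 ± 0.11) and PHLDA3, a repressor of AKT, by 2.25 ± 0.17, whereas MDM2, the ubiquitin ligase for p53, fell from 94.0 and 81.9 FPKM to 25.9 and 27.8 FPKM (-1.21 ± 0.11).

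Families of RNA processing genes had different counts. Core proteins of the small nuclear ribonucleoproteins had 27 of 41 higher and 4 lower (median 0.59, length-adjusted 0.44), with LSM7 from 11.6 and 16.5 FPKM to 107 and 120 FPKM (3.21 ± 0.19). Of 30 hnRNP proteins 18 rose and 2 fell (0.39). The falls were in PTBP2, from 33.0 and 29.1 FPKM to 4.12 and 3.26 FPKM (-1.69 ± 0.18), and PTBP3, from 90.3 and 76.9 FPKM to 29.1 and 27.8 FPKM (-1.48 ± 0.10), both relatives of the splicing repressor PTBP1. SR proteins had 6 of 22 higher and 9 lower (-0.23), but 7 higher and 4 lower with a median of -0.03 when only protein-coding transcripts were summed. SRRM1, a coactivator of splicing, fell by 1.52 ± 0.10 on the log2 scale of counts, and its FPKM went from 123.0 and 112 to 19.3 and 19.8, a larger step than that of the counts. A gene's FPKM is a sum over transcripts each divided by its own length, so it gives more weight to short transcripts than the count does. The log2 fold changes given with FPKM values come from counts. For PTBP2, SMG1 and PTTG1 too the step in FPKM was larger than that of the counts. Among factors of nonsense-mediated decay and the exon junction 11 of 19 rose and 4 fell (0.53, and 0.32 without si-ctrl replicate 1), and the kinase SMG1 fell from 84.3 and 82.8 FPKM to 11.7 and 13.8 FPKM (-1.14 ± 0.11).

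Among the genes that the study or the cell line singles out, HNRNPM, an hnRNP protein that regulates splicing, rose from 74.2 and 57.8 FPKM to 174 and 165 FPKM after si-PLANE.2 (log2 fold change 1.58 ± 0.12, adjusted p = 2.85e-05, edgeR). In si-PLANE.1 it was at 57.4 and 58.0 FPKM, at the lower end of the si-ctrl range. MELTF, the gene next to PLANE that encodes melanotransferrin, was at 18.6 and 18.5 FPKM in si-ctrl, at 28.2 and 28.9 FPKM in si-PLANE.2 (0.71 ± 0.11, adjusted p = 0.000801) and at 22.8 and 18.2 FPKM in si-PLANE.1. E2F1, a transcription factor that drives entry into S phase, went from 7.32 and 7.04 FPKM to 20.9 and 21.9 FPKM (1.76 ± 0.11, adjusted p = 1.53e-05), with 6.41 and 4.92 FPKM in si-PLANE.1. KEAP1, the adaptor that targets NRF2 for degradation, went from 15.97 and 16.9 FPKM to 55.6 and 57.2 FPKM (1.91 ± 0.10, adjusted p = 8.86e-06), with 14.9 and 15.7 FPKM in si-PLANE.1. For each of these 4 genes both si-PLANE.2 libraries lay above the other 4 libraries. Both si-PLANE.2 libraries were also far apart from the rest in their RNA content, and the part of library preparation in these values cannot be told apart from that of the siRNA.

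**Figure D4:**
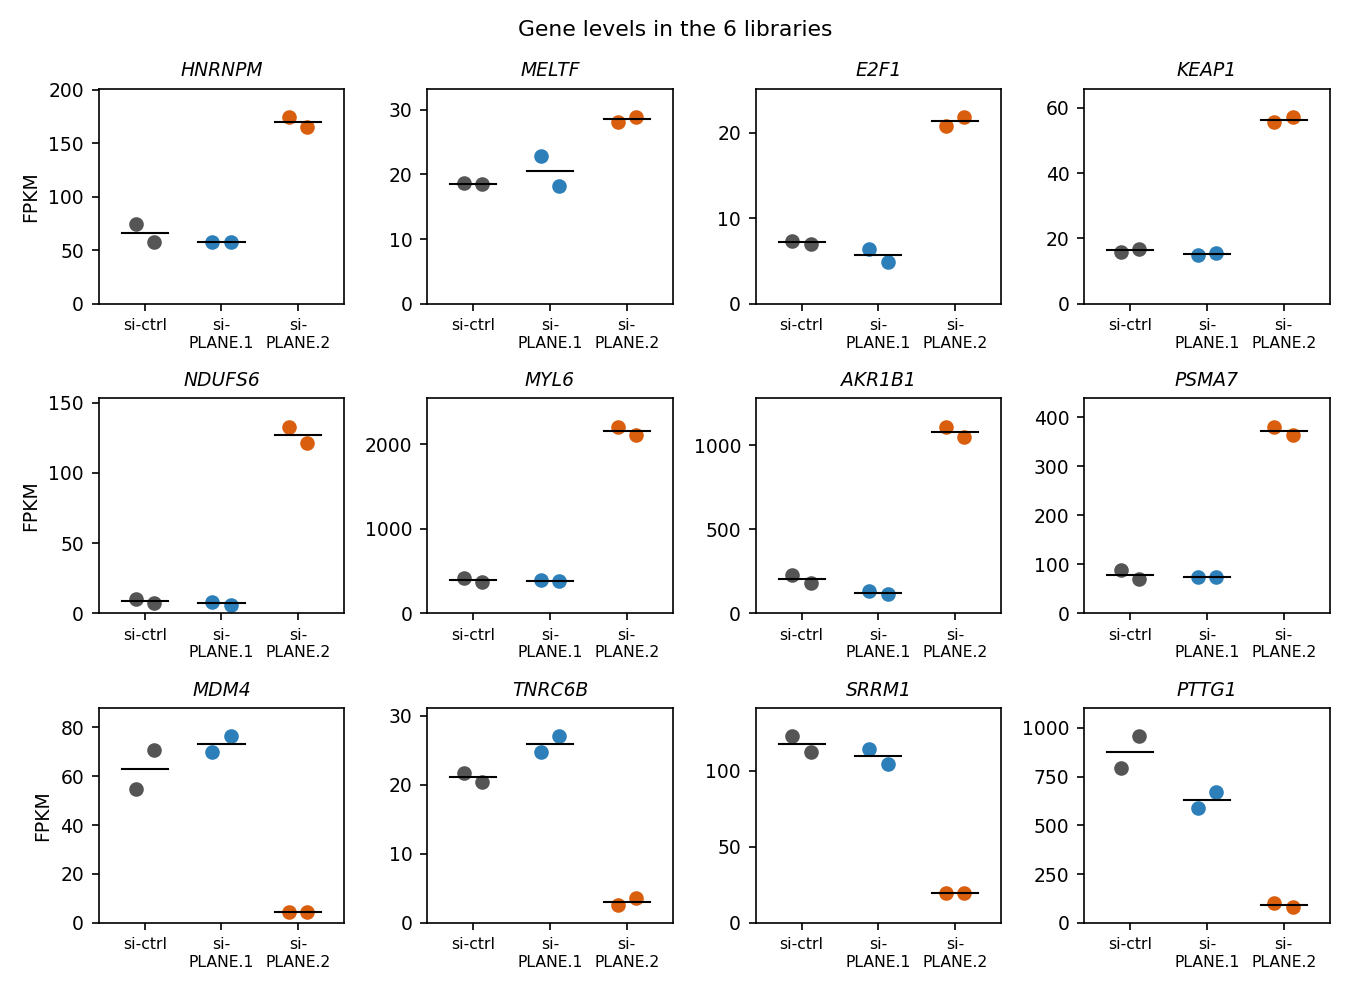
FPKM of 12 genes in the 6 libraries, each point a library and each line the mean of its group, with axes that start at 0. The si-PLANE.2 libraries are the highest in 8 panels and the lowest in the 4 panels of genes that fell, as with HNRNPM at 174 and 165 FPKM and MDM4 at 4.23 and 4.32 FPKM.

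The siRNAs were then compared with each other, in a fit of all 6 libraries whose contrast leaves si-ctrl out. Of 14437 genes, 4485 were higher and 4821 lower in si-PLANE.2 than in si-PLANE.1 at an adjusted p under 0.05, or 31.1% and 33.4%, 64.5% together. The log2 difference between the siRNAs was 1.85 ± 0.12 for HNRNPM, 2.20 ± 0.15 for E2F1, 2.13 ± 0.10 for KEAP1 and 0.75 ± 0.13 for MELTF. Of 85 cytoplasmic ribosomal protein genes 74 were higher and 0 lower, and of 40 replication-dependent histone genes 0 were higher and 35 lower. Of 375 zinc finger genes 43 were higher and 192 lower. NRF2 targets had 30 of 37 higher and 0 lower, with a median log2 fold change against si-ctrl of -0.45 with si-PLANE.1 against 0.67 with si-PLANE.2. For cholesterol synthesis these medians were -0.09 and 0.80, and 23 of 26 genes were higher in si-PLANE.2. Mitosis genes did not follow this pattern, with medians of -0.48 and -0.64 and with 13 of 44 genes higher and 15 lower in si-PLANE.2 than in si-PLANE.1. PTBP2 was at 72.7 and 58.9 FPKM in si-PLANE.1, above si-ctrl, and the siRNAs differed by -2.68 ± 0.17 on the log2 scale. The same 2 si-PLANE.2 libraries enter both contrasts, so what sets these libraries apart enters both.

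At the level of transcripts, 7330 of 56787 were higher and 7192 lower after si-PLANE.2 at an adjusted p under 0.05, or 12.9% and 12.7%, 25.6% together. Protein-coding transcripts had 17.2% higher and 12.2% lower of 29730 (median log2 fold change 0.19). Transcripts with a retained intron, which mostly stay in the nucleus, had 4.61% higher and 14.8% lower of 10274 (median -1.16). Those of coding genes without a defined reading frame had 6.77% higher and 12.3% lower of 5647 (median -0.60), and targets of nonsense-mediated decay 10.3% and 10.7% of 3574 (median 0.08). Within genes that had both kinds tested, 4694 in all, the retained-intron transcripts lay below the protein-coding ones in 3585, or 76.4%, with a median difference of -1.61 on the log2 scale. At the gene level processed pseudogenes, which are intronless copies of mRNAs, had 219 of 481 lower and 78 higher (median -2.60), and protein-coding genes 3997 of 12756 lower and 4290 higher (median 0.01). As a class, however, processed pseudogene transcripts kept much the same share of the summed FPKM. That share was 0.943% and 0.939% in si-ctrl and 0.925% and 0.908% in si-PLANE.2. No transcript passed the test without si-PLANE.2 replicate 3 or without replicate 4, so the transcript calls need both libraries. An unadjusted p under 0.05 was found for 19034 and 19278 transcripts in these fits.

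**Figure D5:**
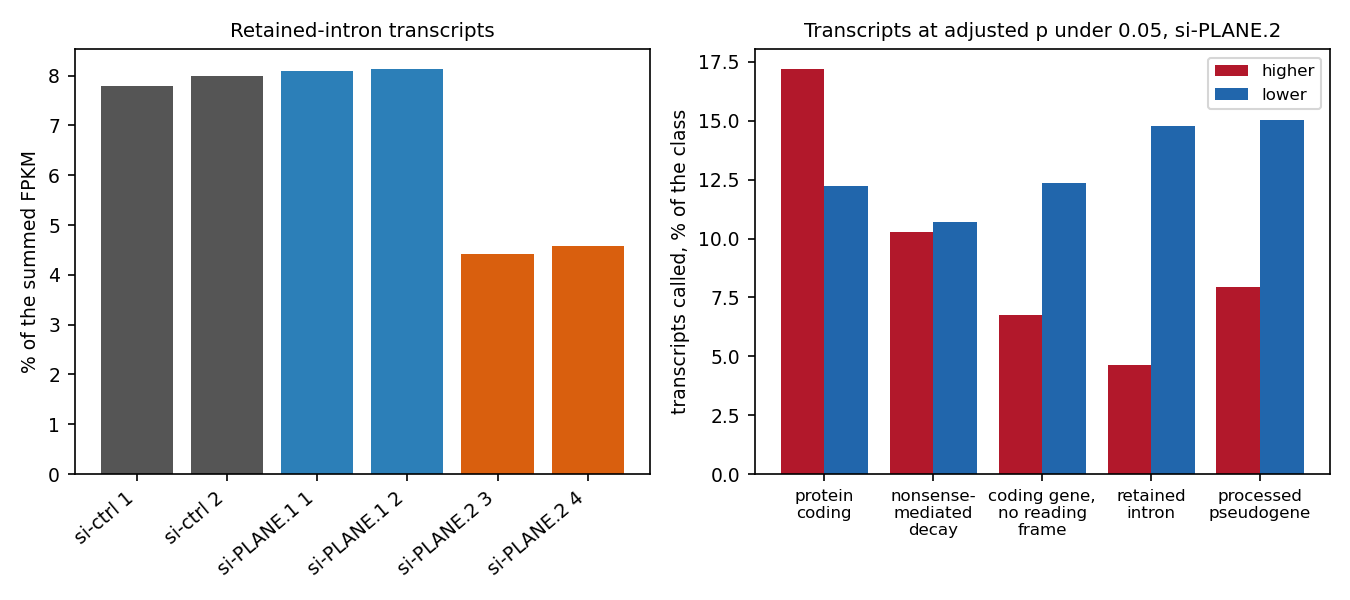
Left, share of the summed FPKM held by retained-intron transcripts in each library, 7.79% to 8.13% in the other libraries and 4.43% and 4.58% in si-PLANE.2. Right, share of transcripts of each class called higher or lower after si-PLANE.2, with 4.61% higher and 14.8% lower among retained-intron transcripts.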

How the data were processed

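RNA of A549 cells was sequenced by the study as paired reads, with 2 libraries each for si-ctrl, si-PLANE.1 and si-PLANE.2. The study's methods name poly(A) isolation and ribosomal RNA removal without saying which library had which. The submitters' processing notes list Trimmomatic 0.30, HISAT2 2.0.1, HTSeq 0.6.1, DESeq and hg19, with no order. The tool behind the expected counts is not given in the sources used here. The authors deposited expected counts and FPKM per transcript, FPKM being scaled by them for length and depth. The siRNAs were in separate tables that share identical si-ctrl columns.

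Expected counts were summed over the transcripts of each gene, rounded, and tested with edgeR 4.0.16 (R 4.3.3) by the two-sided quasi-likelihood test with TMM scaling and Benjamini-Hochberg adjustment, for genes whose FPKM averaged 0.5 or more across a comparison's libraries. The comparisons with si-ctrl were fitted on their 4 libraries each, and that between the siRNAs on all 6, which share an estimate of the spread. Rows without a gene identifier, 3.03% to 3.62% of the counts, were left out. DESeq2 1.42.0 and limma 3.58.1, on log2(FPKM + 1), log2(FPKM + 0.1) and log2(TPM + 1), were alternatives. A fold on such a scale understates the change of low genes. Totals per library ran from 10572151 to 20778431 expected counts, and the bound for a gene at 0 rests on 3 counts per library and covers counting error only. Transcript classes, symbols and sequences came from the GENCODE annotation of GRCh37. On simulated data the gene test recovered 97.5% of 200 genes changed 4-fold among 14166 for si-PLANE.2 against si-ctrl, with 15 false calls. The transcript test recovered 2.5% of 200 among 56787, with 7 false calls. The transcript counts are therefore incomplete and may also hold false calls.

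Genes were named by rule. These were the 12 largest called changes in each direction, outside the replication-dependent histones, with both libraries of a group on one side and at least 10 FPKM in the higher group, the 2 largest called changes in each direction of each gene list, genes the study singles out, and markers and histones. The second selection, RPLP1, HSPA1A, PTPRC and the erythroid genes were added after their values were seen. The members and lists were chosen with earlier results of these data known. Some genes the rule covers, and PLANE, are not reported here.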

Additional observations from a re-analysis of the deposited data

Results flagged for a closer look

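The contrast between the siRNAs differed at 9306 genes, by a test of si-PLANE.2 against si-PLANE.1 itself with edgeR. The effects of the siRNAs on HNRNPM differed by 1.85 on the log2 scale, on MELTF by 0.75, on E2F1 by 2.20 and on KEAP1 by 2.13. In each of the 4 genes both si-PLANE.2 libraries were higher than both si-PLANE.1 libraries. Groups of 2 libraries are too small for the search for a sample far from the others.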

How the results depend on the processing

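With an absolute log2 fold change over 1 required as well, 4376 genes passed between si-PLANE.2 and si-ctrl and 4901 between the siRNAs. Leaving out a library gave 6566 to 9784 and 7389 to 8580 genes, and 0 to 11805 transcripts. The 0 arose without si-PLANE.2 replicate 3 and without replicate 4, where the lone sample is assumed to vary like si-ctrl. DESeq2 called 8189 genes, 8856 genes and 18928 transcripts. On TPM values the median log2 fold change turned to -0.024 for mitochondrial mRNAs, -0.16 for glycolysis, -0.12 for endoplasmic reticulum chaperones, -0.32 for p53 targets and -0.031 for cullin ligases. After subtracting the median of the same length bin, chosen after seeing the data, it was -0.035 for mitochondrial mRNAs, 0.0014 for epithelial identity, 0.075 for mesenchymal genes and 0.017 for the nuclear pore. For immediate early genes it went from -0.019 to 0.068 in the same way. Leaving out a library, it ran from -2.24 to 0.53 for interferon-stimulated genes and from -0.22 to 0.10 for epithelial identity, each highest without si-ctrl replicate 1. Epithelial identity had 0.12 with protein-coding transcripts alone, also chosen after seeing the data. That setting gave 0.25 for RPL26 and 3.32 for ORC6. CENPA had -0.71 on log2(FPKM + 0.1), -0.68 on log2(FPKM + 1) and -0.84 on TPM values, and SLBP -0.029 on the last. The causes were not tested. Of 1710 values under other settings of the 123 named genes, 1688 kept direction and call, and 15 lost the call. Many of these genes were picked as the largest called changes, which favours keeping the call. For the 47 gene lists, 422 medians were taken under other settings. Of these, 220 were classed as the same, 190 as moved and 12 as reversed in sign. The 12 do not hold every change of sign. On log2(FPKM + 1) the median was -0.17 for p53 targets and -0.004 for glycolysis. For histone mRNA processing genes it went from 0.04 to -0.38 on TPM values. No paired analysis was possible because the groups in the si-PLANE.2 comparisons share no replicate number. Between si-PLANE.1 and si-ctrl, which share the numbers 1 and 2, the replicate block, chosen after seeing the data, raised the count from 5 to 1225 genes, and the difference between replicates correlated across genes at 0.38. The labels do not say what a number marks.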

Other observations

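Genes of the secretory path and of nuclear transport were not described above. Of 53 genes of translocation into the endoplasmic reticulum and of vesicle transport, 24 rose and 7 fell, with a median log2 fold change of 0.22, which ran from 0.14 to 0.33 when a library was left out. SEC11C, a subunit of the signal peptidase, rose from 14.0 and 17.7 FPKM to 67.0 and 67.5 FPKM (2.17 ± 0.12), and SEC24A, a coat protein of vesicles that leave the reticulum, fell from 20.7 and 14.9 FPKM to 5.35 and 7.17 FPKM (-1.32 ± 0.14). Of 43 genes of the nuclear pore and its transport receptors 17 fell and 9 rose, with a median of -0.07 that became 0.02 when adjusted for length. NUP153, of the pore's nuclear basket, fell from 32.7 and 28.9 FPKM to 12.3 and 13.2 FPKM (-1.09 ± 0.10), while RAN, the GTPase that gives transport its direction, rose from 364 and 376 FPKM to 630 and 599 FPKM (1.08 ± 0.10).

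Of 32 ubiquitin ligase genes of the cullin family 19 rose and 5 fell, with a median of 0.37 that turned to -0.03 on TPM values. Their members included KEAP1 above and CUL4B, a scaffold of these ligases, which fell from 34.3 and 33.4 FPKM to 15.5 and 14.4 FPKM (-1.08 ± 0.11). Epithelial identity genes had 12 of 28 higher and 9 lower, or 42.9% and 32.1%, against 31.9% and 32.3% of all genes. Their median was -0.16. DSP, which anchors keratin at desmosomes, fell from 107 and 111 FPKM to 26.4 and 30 FPKM (-1.69 ± 0.11), and the protease inhibitor SPINT2 rose from 259 and 229 FPKM to 481 and 467 FPKM (1.82 ± 0.10). Immediate early genes had 8 of 27 higher and 7 lower, or 29.6% and 25.9%, with a median of -0.02 (length-adjusted 0.07). As a list they were thus near the shares over all genes. Single members moved, with JUN from 3.84 and 5.92 FPKM to 16.9 and 17.0 FPKM (1.98 ± 0.19) and EGR1 from 1.17 and 1.43 FPKM to 0.31 and 0.43 FPKM (-1.61 ± 0.35). Of 15 genes of MHC class I presentation 3 rose and 0 fell, with a median of -0.01 (length-adjusted -0.11). The median was 0.59 without si-ctrl replicate 1 and -0.37 without si-ctrl replicate 2.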
